A study of Rattus norvegicus with 2 samples.

Results

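The selectins and leukocyte adhesion molecules described here are 7 genes: Icam1, Icam2, Vcam1, Madcam1, Sele, Selp and Selplg. They were chosen by gene symbol in the platform annotation, and each is measured by 1 probe, so 7 of 20417 named probes and 7 of 15610 named genes belong to the set. The lung RNA came from rat lung cells that were not cultured and not treated, labelled with Cy3, in 2 samples called replicates 1 and 2. The control RNA, mix1, labelled with Cy5 on both arrays, combined cultured bone marrow cells with cultured primary ear fibroblasts of rat, each grown in medium with fetal bovine serum. The labels give no strain, sex or age, and do not say whether different animals gave the lung samples, so a p-value here reflects how far the 2 samples differ, possibly for technical reasons only. The proportions of the cells in mix1 are not stated in the labels, and the spread of mix1 did not enter the test.

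Leukocytes leave the blood in steps. They first roll on selectins, which bind sugar structures carried by mucin-like proteins such as PSGL-1, the product of Selplg. They then stop when their integrins bind immunoglobulin-like molecules on the vessel wall, the ICAMs, VCAM-1 and MAdCAM-1. Resting endothelium carries ICAM-2, whereas inflammatory cytokines acting through NF-κB induce E-selectin, VCAM-1 and much of ICAM-1. In lung, ICAM-1 is also known from alveolar type 1 epithelium, and VCAM-1 is also known from stromal cells of bone marrow.

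The promoters of 3 genes are shown to set Vcam1 and Icam1, which were higher in lung, beside Madcam1, which lay near no difference. Each runs 5′ to 3′ on the gene's strand, from 250 bases before to 50 after the RefSeq start in build GRCr8, and the positions are chr2:206742734-206743033 on the minus strand for Vcam1, chr8:27829595-27829894 on the plus strand for Icam1 and chr7:10690273-10690572 on the minus strand for Madcam1. Capitals mark matches, on either strand, to the NF-κB consensus, to TTCCNGGAA, the palindrome bound by STAT factors, or to TATAAA, which overlaps its own reverse match in Vcam1.
Vcam1: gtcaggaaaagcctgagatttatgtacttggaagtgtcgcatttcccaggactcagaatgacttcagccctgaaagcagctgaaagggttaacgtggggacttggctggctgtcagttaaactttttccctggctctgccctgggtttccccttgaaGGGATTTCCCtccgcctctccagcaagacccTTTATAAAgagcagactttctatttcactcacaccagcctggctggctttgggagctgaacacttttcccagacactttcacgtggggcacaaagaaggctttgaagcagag
Icam1: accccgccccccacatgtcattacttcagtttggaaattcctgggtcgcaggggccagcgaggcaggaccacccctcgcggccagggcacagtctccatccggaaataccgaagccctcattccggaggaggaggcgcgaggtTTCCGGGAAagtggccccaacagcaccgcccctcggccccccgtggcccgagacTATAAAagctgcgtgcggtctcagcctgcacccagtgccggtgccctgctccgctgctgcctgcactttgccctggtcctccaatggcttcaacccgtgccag
Madcam1: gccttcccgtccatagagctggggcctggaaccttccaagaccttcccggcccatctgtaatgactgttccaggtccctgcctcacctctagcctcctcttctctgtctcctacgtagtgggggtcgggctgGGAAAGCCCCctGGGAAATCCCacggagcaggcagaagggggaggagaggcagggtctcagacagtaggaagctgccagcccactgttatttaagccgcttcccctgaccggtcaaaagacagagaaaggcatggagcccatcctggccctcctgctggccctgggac

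The NF-κB consensus searched was GGGRNNYYCC, with R for A or G, Y for C or T and N for any letter. It matched 1 time in the Vcam1 promoter, 93 bases before the start, and 2 times in the Madcam1 promoter, 118 and 106 bases before it. It was present in 7.51% of the 33469 promoters of that length. Other forms of the site were not searched, so a promoter without a match, such as that of Icam1, may still hold a site. TTCCNGGAA matched 1 time, in Icam1 at 107 bases before the start, and is held by 1.27% of promoters. TATAAA matched in Icam1 and Vcam1 and is held by 14.2%. The stretch taken for Sele by the same rule (chr13:78936264-78936563, plus strand) held none of these matches. Its RefSeq start falls on the letters atg, as a start codon would, so the promoter of Sele may not lie in this stretch. Icam2, Selp and Selplg were not analysed for promoters. A match describes the letters only, and Madcam1, with 2 NF-κB matches, had ratios near 0.

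Each value is a log2 ratio as deposited, read as lung over mix1, so that 1 stands for a 2-fold higher signal in lung. This direction is likely and not stated outright. With it, 6 genes of alveolar and airway epithelium had a median ratio of 5.66 in replicate 1 and 5.62 in replicate 2, and if the sign were the other way round, higher would read as lower throughout. The median gene lay at -0.22, and the arrays differed by a median SD of 0.051 per gene. No intensities were used, so the values are differences between lung and mix1 and not levels, and a larger ratio of a gene does not mean more of its RNA in lung. In RNA from a mixed tissue, more cells of a type and more RNA per cell cannot be told apart, and without a dye swap a dye effect cannot be told apart from the difference between the RNAs.

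Of the 7 genes, 5 were higher in lung at an adjusted p under 0.05 in limma's moderated test, 2 did not pass and 0 were lower. At an unadjusted p under 0.05 limma gave the same 5 genes. Among all genes tested, 32.9% were higher and 49.7% lower by the same rule, together 82.7%, so passing the test was the usual outcome. Centring the arrays on their medians, a shift of 0.19 on average, left the same 5 members higher, and then 38.5% of all genes were higher and 38% lower. By size, 4 of the 7 genes, Icam2, Vcam1, Sele and Icam1, were at least 2-fold higher in both arrays, against 16.5% of all genes, and 0 were at least 2-fold lower in both, against 15.8%. The median of the 7 genes was 1.75, beside -0.22 for all genes. The order of the ratios was Icam2, Vcam1, Sele, Icam1, Selp, Madcam1 and Selplg. The arrays of neighbours in this order did not overlap except for Madcam1 and Selplg.

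**Figure D1:**
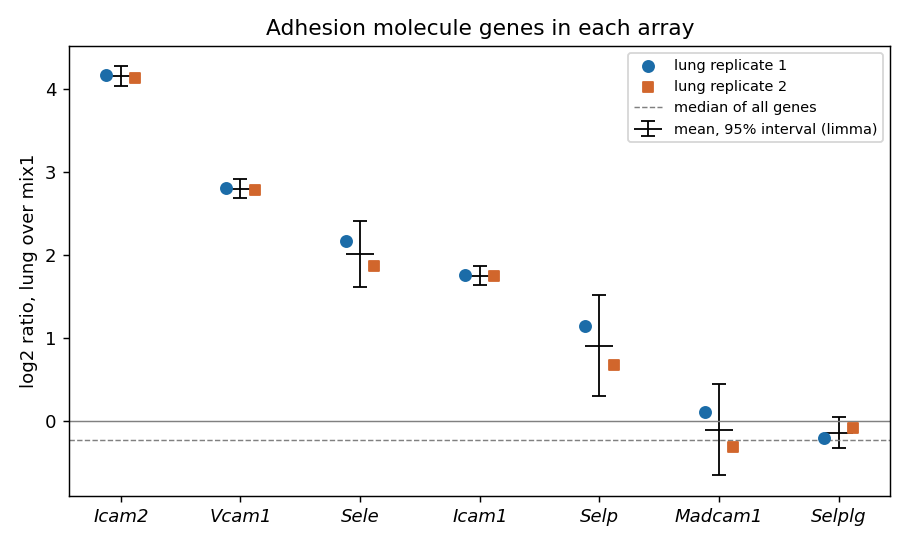
Log2 ratio of lung over mix1 (vertical axis) for each gene, with circles for lung replicate 1, squares for lung replicate 2, and black bars for the mean with its 95% interval from limma. Icam2 lies at the top at 4.15, the intervals of Madcam1 and Selplg include 0, and Selp and Madcam1 have the widest intervals.

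Among the integrin ligands, the ICAM genes were both higher in lung and by different amounts. Icam2, the ligand of the leukocyte integrin LFA-1 that endothelium carries at rest, had log2 ratios of 4.17 in lung replicate 1 and 4.13 in lung replicate 2. Both arrays were far above 0, and the mean of 4.15 ± 0.025 (SD, n = 2) is a 17.7-fold difference with a 95% interval of 4.03 to 4.27 (limma adjusted p 0.00117). It was the only one of the 7 genes at least 16-fold higher in both arrays, a size reached by 2.14% of all genes, and 97.9% of all genes had a lower mean ratio. Icam1, a ligand of LFA-1 and of the myeloid integrin Mac-1, had ratios of 1.76 and 1.75. The arrays nearly coincided, with a mean of 1.75 ± 0.0078 (SD, n = 2), or 3.37-fold, and an interval of 1.64 to 1.86 (limma adjusted p 0.00122). The ratio of Icam2 exceeded that of Icam1 by 2.41 in replicate 1 and by 2.38 in replicate 2, which is many times the SD of either gene.

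Of the ligands of integrins with the α4 chain, Vcam1 was higher in lung and Madcam1 was not called. Vcam1, whose product binds the integrin VLA-4, had ratios of 2.81 and 2.78 in lung replicates 1 and 2. The mean was 2.80 ± 0.019 (SD, n = 2), or 6.95-fold, with an interval of 2.68 to 2.91 (limma adjusted p 0.00117), and it lay 1.04 above Icam1 and 1.35 below Icam2. Madcam1, the addressin of gut venules that guides lymphocytes with the integrin of the Itga4 and Itgb7 products, had ratios of 0.11 and -0.31. The arrays lay on opposite sides of 0, as they did for 4.91% of all genes, and the mean of -0.10 ± 0.30 (SD, n = 2) had an interval of -0.65 to 0.45 (limma adjusted p 0.565). A difference of up to that size in either direction was not detectable with 2 arrays.

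The selectins were higher in lung and varied more between the arrays than the ICAM genes. Sele encodes E-selectin, which endothelium makes after stimulation by cytokines. Its ratios were 2.16 in lung replicate 1 and 1.86 in lung replicate 2, with a mean of 2.01 ± 0.21 (SD, n = 2), or 4.04-fold, and an interval of 1.62 to 2.41 (limma adjusted p 0.00343). Although its mean lay 0.26 above that of Icam1, this gap was 0.41 in replicate 1 and 0.12 in replicate 2, about the SD of Sele itself. Selp encodes P-selectin, which is stored ready-made in Weibel-Palade bodies of endothelium and alpha granules of platelets. Its ratios were 1.14 and 0.68, so it passed 2-fold in replicate 1 alone, and the mean of 0.91 ± 0.33 (SD, n = 2), or 1.88-fold, had an interval of 0.31 to 1.51. It passed limma's test with an adjusted p of 0.0284 and would not pass at 0.01. Sele exceeded Selp by 1.02 in replicate 1 and 1.19 in replicate 2.

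Selplg had the lowest mean of the 7 genes, although Madcam1 was lower in replicate 2. Selplg encodes PSGL-1, the ligand by which leukocytes roll on P-selectin and also on E-selectin. Its ratios were -0.19 in lung replicate 1 and -0.08 in lung replicate 2, and the mean of -0.14 ± 0.083 (SD, n = 2), with an interval of -0.32 to 0.050, was not called by limma (adjusted p 0.105). Relative to the median probe of each array the ratios were -0.03 and 0.14, on opposite sides of 0. Both selectin genes had higher ratios than Selplg in both arrays, by 2.36 and 1.94 for Sele and by 1.34 and 0.75 for Selp. The 21 differences between pairs of these genes are given as values and were not tested.

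**Figure D2:**
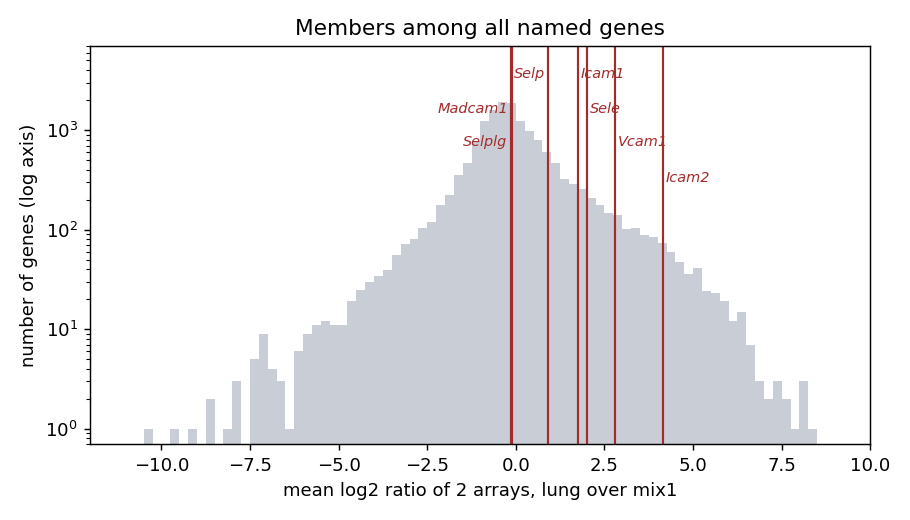
Number of genes (vertical log axis) by mean log2 ratio of the 2 arrays, lung over mix1 (horizontal axis), for the 15610 named genes in grey, with the 7 adhesion genes as red lines. Icam2, Vcam1, Sele and Icam1 lie on the upper shoulder, whereas Madcam1 and Selplg lie near the peak.

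The spread between the arrays divided the genes. Icam1, Vcam1 and Icam2 had SDs of 0.0078, 0.019 and 0.025, each below the 0.051 of the median gene. The SDs of Selplg, Sele, Madcam1 and Selp were 0.083, 0.21, 0.30 and 0.33, and for Selp 92.2% of all genes had a smaller SD.

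**Figure D3:**
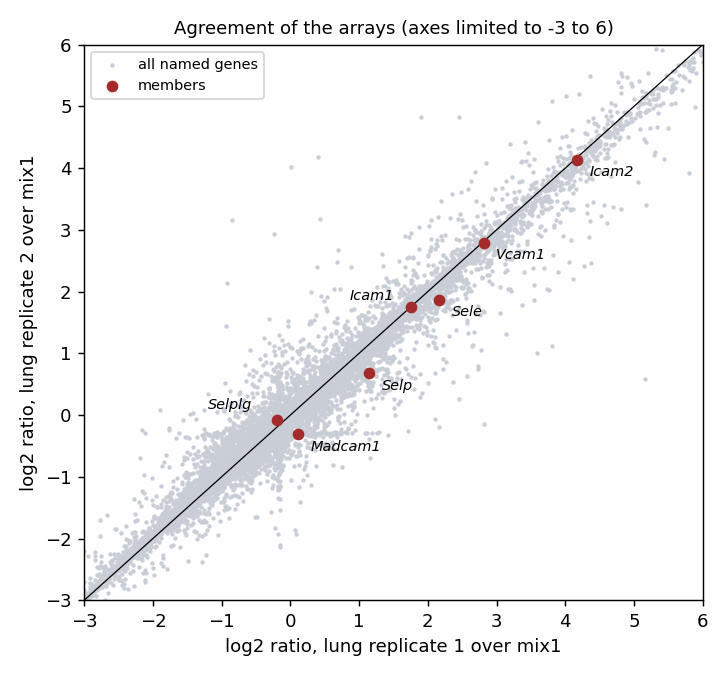
Log2 ratio in lung replicate 2 (vertical axis) against lung replicate 1 (horizontal axis), both over mix1, with all named genes in grey, the 7 adhesion genes in red and the line of equality, limited to ratios of -3 to 6. Icam1, Vcam1 and Icam2 lie on the line, and Sele, Selp and Madcam1 lie below it.

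The genes that did not pass each had an array within a narrow excess of probe ratios just below 0. In replicate 1, 5126 of 40012 probes lay between -0.26 and -0.14, where 1572 would lie at the density of the median bin, and in replicate 2, 4763 probes lay between -0.36 and -0.26, against 1360. Madcam1 lay in this excess in replicate 2 and Selplg in replicate 1. Neither gene lay in it in both arrays. The other 5 genes had ratios above 0 in both arrays and so could not lie in it. What these probes share was not tested, because no intensities were used.

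**Figure D4:**
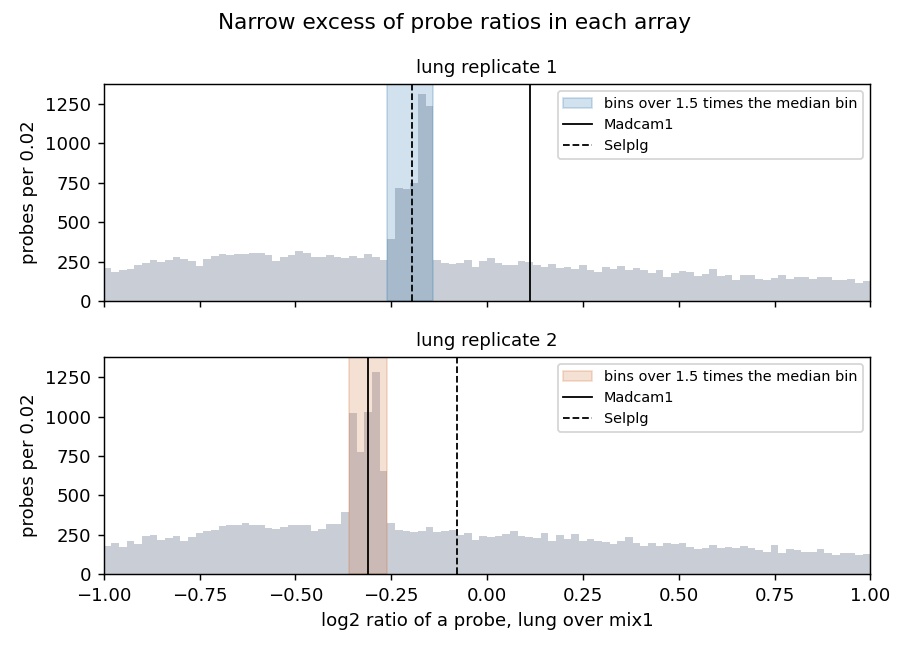
Number of probes in bins of 0.02 (vertical axis) by log2 ratio, lung over mix1 (horizontal axis, -1 to 1), for lung replicates 1 and 2. Shading marks the bins holding over 1.5 times the median bin, and the lines mark Madcam1, inside the shading in replicate 2, and Selplg, inside it in replicate 1.

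Genes of the cells known to carry these molecules were mostly higher in lung. Of 21 endothelial markers, 20 passed as higher and 1 as lower, at a median ratio of 3.97. Among them Pecam1, the gene of a junction molecule, lay at 3.61 ± 0.23 (SD, n = 2). Icam2 lay above 13 of these 21 markers, while Vcam1 lay above 5, Sele above 3, Icam1 above 2, and Selp, Madcam1 and Selplg above 1 each. That marker was Robo4 at -0.70 ± 0.016. Set against the median of the endothelial markers, Icam2 was higher by 0.17 and 0.19 in replicates 1 and 2, whereas Sele lay at -1.84 and -2.08 and Selp at -2.86 and -3.26. The part of endothelial content in the ratios of the adhesion genes was not tested.

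Other cell types were represented too. All 9 measured alveolar type 1 markers were higher (median 3.94), and Ager lay at 3.94 ± 0.12 (SD, n = 2), above the 1.75 of Icam1. Of 11 platelet markers, 8 passed as higher and 3 as lower (8 and 1 with array medians subtracted), and the median was 1.23 in replicate 1 and 1.62 in replicate 2. The integrin gene Itga2b, which defines platelets, was not analysed here. Clec1b was the highest at 8.38 ± 0.44 and Gp5 lay at 3.37 ± 0.028, while the platelet chemokine gene Pf4 lay at 1.08 ± 0.017. Gp1ba, a subunit of the platelet receptor for von Willebrand factor, was the lowest at -0.99 ± 0.15. Selp lay above 3 of these 11 markers and below 8. Of 13 leukocyte markers, 12 were higher and 1 did not pass, with medians of 2.07 and 2.01, and the pan-leukocyte phosphatase gene Ptprc lay at 2.22 ± 0.017. Selplg lay below all 13 of them, at -2.27 and -2.09 relative to their median in replicates 1 and 2. All 18 markers of fibroblasts and marrow stroma were lower (median -4.96), and all 7 adhesion genes lay above each of these 18. How far these cell types enter the ratios was not tested.

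The integrins that bind these ligands were higher in lung, apart from the broadly expressed β1 chain. Of 9 measured leukocyte integrin chains, 8 passed as higher and 1 as lower, and the median was 2.12. These 9 include Itgae, whose product is not a chain of the receptors for these ligands. For the partners of Icam1 and Icam2, the shared β2 chain gene Itgb2 had ratios of 2.35 and 2.36 in lung replicates 1 and 2. The LFA-1 chain gene Itgal lay at 2.12, the mean of probes at 0.84 and 3.40, and the Mac-1 chain gene Itgam at 1.98 ± 0.15 (SD, n = 2). For the partners of Vcam1 and Madcam1, the α4 chain gene Itga4 lay at 2.86 ± 0.13 and the β7 chain gene Itgb7 at 3.86 ± 0.27, beside a Madcam1 ratio near 0. Itgb1, the other partner chain of Itga4, lay at -1.14 ± 0.0062. Of 12 genes that activate these integrins, 10 were higher and 1 lower (median 1.73), led by the adaptor gene Skap1 at 4.46 ± 0.054 and the Rap1 exchange factor gene Rasgrp2 at 3.31 ± 0.14, with talin 1 (Tln1) at -0.72 ± 0.026.

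Of 10 mucin-type and other carriers of selectin ligands, 6 were higher and 4 lower (6 and 3 with array medians subtracted; median 1.45, or 0.75 with the median probe of each gene), with podocalyxin (Podxl) at 5.88 ± 0.0088 (SD, n = 2), endomucin (Emcn) at 4.07 ± 0.12 and Podxl2 at -1.60 ± 0.063. Of 14 enzymes that build the sugar ligands or add sulfate to them, 6 passed as higher, 7 as lower and 1 did not pass, with a median of -0.12 (7 higher and 5 lower, median 0.070, with array medians subtracted), near the shares of 32.9% higher and 49.7% lower over all genes. Among them the fucosyltransferase gene Fut7, needed for the selectin-binding sugars on PSGL-1, lay at 1.14 ± 0.21, the sulfotransferase gene Chst4 of lymph node venules at 1.79 ± 0.51, and the sialyltransferase gene St3gal3 at -1.87 ± 0.21. Fut7 was therefore higher in lung, although Selplg, which encodes the protein it modifies, was not called.

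A further 20 cytokine, receptor and NF-κB genes are linked to induction of the adhesion molecules, whether or not each of them promotes it. Of these 20, 8 passed as higher, 11 as lower and 1 in neither direction (median -0.28, and 8 higher and 9 lower with array medians subtracted). These counts are near the shares over all genes, 32.9% higher and 49.7% lower. Tnf, an inducer of Sele, Vcam1 and Icam1 in endothelium, lay at -2.70 ± 0.024 (SD, n = 2), and the interleukin 1 receptor gene Il1r1 at -2.18 ± 0.13. Lymphotoxin beta (Ltb) lay at 3.65 ± 0.0058 and the interferon-induced factor Irf1 at 0.83 ± 0.030. Sele, Vcam1 and Icam1 were higher and Tnf was lower in these ratios, and whether the inducers bear on the adhesion genes was not tested. Of 10 genes of the Weibel-Palade body, where P-selectin is stored, 8 passed as higher and 1 as lower (median 0.78), and the lower one, Plat at -0.15 ± 0.0097, was at 0.042 and not called with array medians subtracted. The main cargo gene Vwf lay at 4.63 ± 0.080, above Selp, and the secretion genes Unc13d and Rab27a at 3.35 ± 0.032 and 2.75 ± 0.049.

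Of 15 genes of the junctions that leukocytes pass after arrest, 10 were higher and 5 lower (10 and 4 with array medians subtracted). Their median was 2.40, or 1.21 with the median probe of each gene. Claudin 5 (Cldn5) lay at 5.03 ± 0.049 (SD, n = 2), Cd99l2 at 4.06 ± 0.13 and Esam at 3.68 ± 0.032. Vinculin (Vcl), which like the Ctnnb1 product lies inside the cell, lay at -2.28 ± 0.10. Of 11 sheddases and linkers to actin, 7 were higher and 4 lower (median 0.20). Ezrin (Ezr), which ties ICAM proteins to actin, lay at 1.91 ± 0.044, and Actn1, an actin crosslinker that binds the tail of ICAM-1, at -3.26 ± 0.033. Of 10 venular and lymphoid homing markers, 8 passed as higher and 2 as lower (8 and 1 with array medians subtracted, Lta then not called), and the median was 2.10 in replicate 1 and 2.47 in replicate 2. The homing chemokine Ccl21 lay at 4.35 ± 0.057 and Cxcl13 at -0.41 ± 0.011, beside Madcam1 with no call. Of 3 other adhesion genes measured, Cd2 lay at 4.79 ± 0.19 and Cd48 at 1.10 ± 0.015, neither of them an ICAM gene or an ICAM ligand gene. The red cell ICAM gene Icam4 lay at -0.42 ± 0.0020, so that the ICAM family itself was higher for Icam2 and Icam1 and lower for Icam4.

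**Figure D5:**
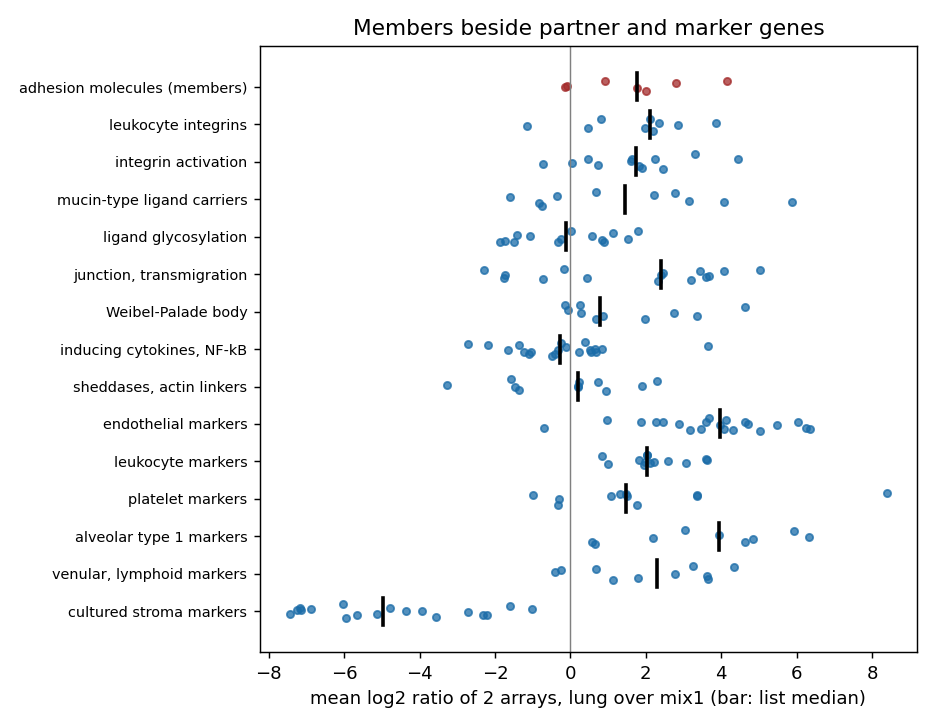
Mean log2 ratio of 2 arrays, lung over mix1 (horizontal axis), for the 7 adhesion genes in red and for partner and marker genes in blue, 1 list per line, with a black bar at the list median. The median of the adhesion genes, 1.75, lies below the endothelial and alveolar type 1 medians, and Icam2 alone lies above both. All 7 lie above every cultured stroma marker, as most genes do.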

How the data were processed

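RNA of uncultured rat lung cells (Cy3) was hybridised with mix1 RNA (Cy5) on 2 two-colour arrays. Per the submitters' processing notes, Agilent Feature Extraction was used. Its version and how background, dyes and centring were handled are not stated there. The authors' deposited values, 1 per probe and array, were taken as log2 ratios, because their range of -11.74 to 9.09 exceeds what base-10 logarithms of a 16-bit scanner allow. The probe medians were -0.16 and -0.21, so neither array had been centred on its median probe.

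Probes were named from the platform annotation, updated to GRCr8 symbols through RefSeq accessions (16978 probes), current symbols (3044) or synonyms (387), while 8 kept their symbol. The mean of a gene's probes was used, which affects 3768 of 15610 genes but no member.

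Genes were tested against 0 with limma 3.58.1 in R 4.3.3 (lmFit, eBayes, Benjamini-Hochberg over all genes, 0.05), with 1 residual and 1.28 prior degrees of freedom, and tested on simulated data first. The members and lists were chosen with earlier results of these data known. Named genes are all members, up to 3 highest and 2 lowest called genes of each of 15 lists, and chosen markers of cell types. Itgal, Itgam and Icam4 are named as partners or relatives of members. List counts and medians carry no test. The alternatives were robust eBayes, treat, scaling between arrays, array medians subtracted, the median probe (the lower middle one of an even number), single probes, a stricter threshold and leaving out each array. Leaving out probes in the narrow excess of both arrays, found in bins of 0.02 between -0.6 and 0.3, was added after seeing the data, as was the count of members past 2-fold without each array. The number of arrays limits the precision of every value.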

Additional observations from a re-analysis of the deposited data

How the results depend on the processing

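The calls of Icam1, Icam2, Vcam1 and Sele were the same under every alternative that gave a test. Robust eBayes, treat against 2-fold, scaling between arrays, array medians subtracted and an adjusted p under 0.01 could have changed them. The median probe, single probes and the omission of probes in the narrow excess of both arrays left their ratios as they were. These genes have 1 probe each, outside the excess, so in those settings only the adjusted p could move. Selp, at 0.91, was not called with treat (adjusted p 1) or at 0.01 (adjusted p 0.0284). With array medians subtracted, Madcam1 lay at 0.087 (adjusted p 0.519) and Selplg at 0.051 (adjusted p 0.546), so neither sign is settled. With treat, 2143 genes were higher and 1881 lower, against 5142 and 7765 as reported. The median log2 ratios of the lists also moved. With array medians subtracted they were 1.63 for ligand carriers, 1.29 for the list of Icam4, Cd2 and Cd48, 2.31 for integrins and 1.91 for integrin activators. In the same setting they were 0.070 for glycosylation enzymes, 2.59 for junction molecules, -0.091 for genes of induction and 0.39 for sheddases and linkers. The other medians were 0.96 for Weibel-Palade genes, 4.16 for endothelial markers, 2.21 for leukocyte markers, -4.77 for stromal markers and 4.12 for type 1 markers. The glycosylation enzymes changed sign because their median lay within the shift of the arrays. With the median probe, which lowers genes with an even number of probes, they were 0.75 for ligand carriers, 1.65 for integrins, -0.054 for glycosylation enzymes, 1.21 for junction molecules, 0.17 for sheddases and linkers, 0.47 for Weibel-Palade genes, 3.79 for endothelial markers and -5.04 for stromal markers. Over single probes they were 0.83 for ligand carriers, 1.81 for integrins, 1.63 for integrin activators, -0.27 for glycosylation enzymes, 0.82 for junction molecules, 0.22 for sheddases and linkers, 1.01 for Weibel-Palade genes, 3.89 for endothelial markers, 2.10 for leukocyte markers, -4.80 for stromal markers and 3.47 for type 1 markers. An array left out gives a value with no test. Without lung replicate 1 or 2, the median of junction molecules was 2.35 to 2.41 and that of leukocyte markers 2.01 to 2.07, and the number of adhesion genes at least 2-fold higher was 4 to 5, the fifth being Selp in replicate 1. Counts of called genes could not be made from 1 array. No paired analysis was possible because the labels give 1 group and mix1 was on every array. Signal over background is unknown here, so ratios of dim probes cannot be singled out.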

Other observations

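The narrow excess of probe ratios touched the counts over all genes more than the adhesion genes. In all, 3029 probes (7.57%) lay in it in both arrays, and 757 genes had no probe outside it. Of these 757 genes, 621 were called lower in lung and 0 higher, at ratios between -0.36 and -0.14. Without such probes, 47.9% of 14853 genes were lower and 34.7% higher. Among the partner and marker genes, Lta alone lay wholly in the excess.

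Probes of the same partner gene often gave different ratios. Of 175 measured partner and marker genes, 56 had several probes, and in 29 of these the highest and lowest probe were more than 1 apart on the log2 scale. The junction gene Jam2 had probes at 1.21 and 5.68 and the sialomucin gene Spn at 0.83 and 3.61. In 6 genes the probes lay on opposite sides of 0. The 7 adhesion genes have 1 probe each, so no such comparison could be made for them.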
